A study of Mus musculus with 16 samples.

Results

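Long terminal exon bins are the last stretches of a gene's exons, and in protein-coding genes they usually hold 3′ untranslated region. A set of 1813 such bins was described, of 468583 exon bins in the deposited exon table. Of these, 1776 held annotated untranslated bases, and in 812 such bases covered the whole bin. A bin here is a piece of exon left after overlapping exons of all annotated transcripts were cut at every border. Each member was the 3′-most bin of a gene with at least 3 bins that had not been joined to a neighbouring gene, and it was at least 1000 bp long. The members were chosen by their mean count, which had to reach 50 over the 16 libraries. Of 25549 terminal bins of such genes, 7617 were at least 1000 bp long and 1813 of these also passed the count minimum. A level or a length alone is therefore not a finding about them. What was measured for each member was its share, the percentage of its gene's exon counts that fell in it.

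The libraries were ribosomal-RNA-depleted total RNA from mHiPPoE-2, an immortalised mouse hippocampal neuron line from strain Crl:CFW(SW)-024, and no group had been treated with an agent. There were 8 groups of 2 libraries. WT was the unedited line. METTL3 KO was 1 clonal isolate lacking METTL3. The 2 control clones had received Cas9 and no guide RNA. The 2 RBM45 KO clones lacked RBM45. The 2 KO rescue clones carried the RBM45 knockout and an added F-HA-tagged RBM45 whose guide RNA site had been mutated. The labels do not say that the libraries of a group came from separate cultures. The p-values over libraries then measure the spread between libraries, which may be technical, and a single isolate cannot be told apart from its genotype.

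The last exon of a transcript usually holds the stop codon and the 3′ untranslated region, which RNA-binding proteins and microRNAs read. The 3′ end is made when the cleavage and polyadenylation machinery recognises a hexamer, most often AAUAAA, and cuts a short way downstream. Many genes have more than one such site, and the choice between them, called alternative polyadenylation, sets whether the distal stretch is included. METTL3 is the catalytic subunit of the complex that writes N6-methyladenosine (m6A), a mark that is dense around stop codons and in long last exons. RBM45 is an RNA-binding protein with several RNA recognition motifs. A terminal bin's share can move with the 3′ end used, with counts elsewhere in the gene, or with reads from a gene on the other strand.

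The exon-table total ranged from 7066018 to 18783523 counts per library, and the members held 185171 to 505820 of them. Mettl3 was at 11.6 and 8.78 CPM (counts scaled to the library's TMM-adjusted total, per 1000000) in WT and at 3.71 and 3.35 CPM in METTL3 KO. Rbm45 was at 12.8 to 16.6 CPM in the control clones, 5.70 to 10.7 in the RBM45 KO clones and 21.1 to 25.9 in the KO rescue clones. Against the label of a neuron line, 9 of 10 neuron markers were in the table and 2 of these were above 1 CPM on average, led by Map2, while Stmn2 and Nefl were at 0 in every library. All 5 neural progenitor markers were above 1 CPM, summing to 574.5 to 1766.1 CPM with Vim highest. All 4 mesenchymal markers in the table were also above 1 CPM, summing to 338.1 CPM in WT, 650.8 in METTL3 KO, 1293.2 in control clone 1, 1688.5 in RBM45 KO clone 1 and 226.6 to 291.9 in the other 4 clones. Summed astrocyte markers were at 0.320 to 25.3 CPM, oligodendrocyte markers at 42.1 to 130.1 (mostly Cspg4) and microglia markers at 36.2 to 59.5 (mostly Cx3cr1). The part of these differences in the results below was not tested.

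Of the 1813 members, 1788 lay in protein-coding genes, 1001 held an annotated stop codon, and 1807 ended exactly at an annotated transcript end. They came in 2 kinds. In 949 (52.3%) the bin directly extended another bin, and in 924 of these a shorter annotated transcript ended at the border, so that the member is the stretch that only longer transcripts include. The other 864 were set apart from the bin before them by an intron or a gap. An exon bin of another gene lay on the opposite strand of 282 members (15.6%), a point that matters because the kit does not keep strand.

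The transcript sequence was found for 1808 members. AATAAA or ATTAAA, searched on the transcript strand in the last 50 bases, was present in 1560 of them (86.3%) and in 3809 of 5771 long terminal bins below the count minimum (66.0%); 1298 members had AATAAA. In the 786 extending members whose shorter end had sequence, the 50 bases before the border held one of these hexamers in 165 (20.99%). The annotated distal ends thus carried the hexamer more often than the annotated shorter ends of the same exons. This is a description of letters, not of sites used.

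The windows below show the distal ends of members that the comparisons turn on, from GENCODE release 21 transcripts on GRCm38, 5′ to 3′ on the transcript strand with the hexamer in capitals. The first 4 passed the test in METTL3 KO with some of the smallest p-values or largest changes. They lie at chr1:181168957-181168986 (plus strand, Cnih4), chr8:126930675-126930704 (minus, Tomm20), chr16:65866334-65866363 (plus, Vgll3) and chr5:99955939-99955968 (minus, Hnrnpd).
Cnih4: acacagacacAATAAAtggcagttgaataa
Tomm20: tggcatttcaAATAAAcaccttcatgattt
Vgll3: taacttgttcAATAAAtaatttaatgtgac
Hnrnpd: tgtcttaacaATTAAActttccagcactca

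The next 3 belong to RNA-processing genes whose members passed the same test, at chr10:117344673-117344702 (minus strand, Cpsf6), chr8:94015498-94015527 (minus, Nudt21) and chr2:162937089-162937118 (plus, Srsf6). Ide, at chr19:37268746-37268775 (minus), and Tor1aip2, at chr1:156068832-156068861 (plus), changed between the RBM45 genotypes.
Cpsf6: tcttgtattgaaAATAAAaacaaagttttg
Nudt21: ctgttatttcAATAAAaatatttaaaactg
Srsf6: gctttatctcAATAAAatgcttaccaaggg
Ide: tcctgtttacAATAAAtctgacctggaact
Tor1aip2: aaaatttccaaAATAAAgaatttatgaaaa

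In these 9 members the hexamer began 18 to 28 bases before the annotated end, the distance at which polyadenylation signals usually lie. For comparison, 3 of these exons also had a hexamer just before the border at which a shorter transcript ends, at chr16:65861866-65861895 (Vgll3), chr2:162935179-162935208 (Srsf6) and chr5:99960598-99960627 (Hnrnpd). In these exons both ends carry AATAAA or ATTAAA.
Vgll3 shorter end: aaaattagagcaaAATAAAagtggtaatgg
Srsf6 shorter end: tatgtaagatttaAATAAAagtttgctacc
Hnrnpd shorter end: gcttccattaAATAAAaaaaatgtggactt

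Members were long and unevenly covered. Their median length was 2425 bp, with quartiles of 1677 and 3597 bp, and their median mean count was 119.2. The median member held 33.7% of its gene's exon counts (quartiles 20.5% and 50.3%) while making up 45.9% of its exon length. The share was higher than the length share in 317 members (17.5%). Counts per base were thus mostly lower in the terminal bin than over the rest of the gene. A read lying over several bins could be counted in each, and the part of this in the difference was not tested. Extending members held a median of 28.3% and set-apart members 40.03%. The SD of the share between the 2 libraries of a group had a median of 2.55 percentage points, and the SD between the 8 group means had one of 1.99 points. The range of the 8 group means had a median of 5.90 points and passed 10 points in 311 members (17.2%). A range over 8 means is a wider measure than an SD, so it cannot be set against the 2.55 points.

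The median share over all members differed little between libraries. It was 32.4% and 33.7% in WT, 34.7% and 33.6% in METTL3 KO, 33.7% and 33.8% in control clone 1, 32.9% and 33.3% in control clone 2, 32.7% and 33.1% in RBM45 KO clone 1, 33.7% and 34.7% in RBM45 KO clone 2, 34.4% and 34.0% in KO rescue clone 1, and 33.9% and 33.5% in KO rescue clone 2. The lowest and the highest library belonged to WT and METTL3 KO, but the other libraries of these groups differed by less than the spread within a group.

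**Figure D1:**
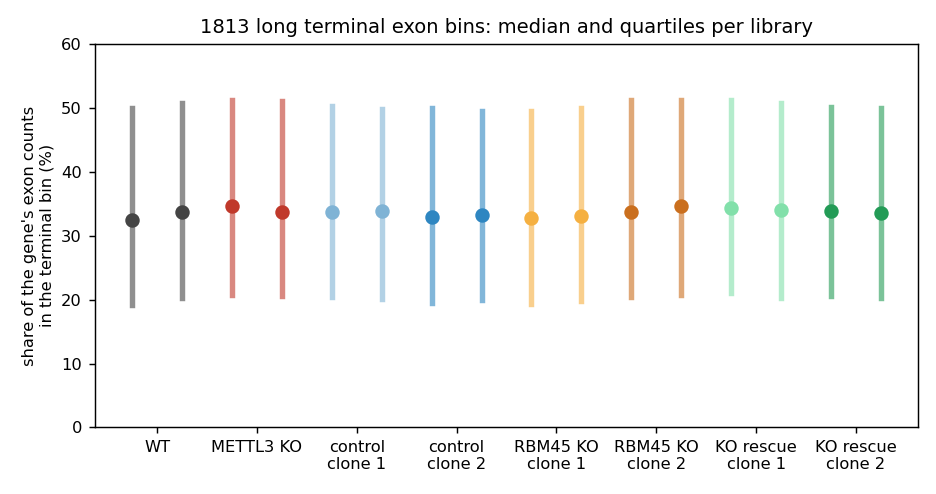
Share of the gene's exon counts in the terminal bin, in percent, for the 1813 members in each of the 16 libraries; the marks give the median and the quartiles. The medians sit between 32.4% and 34.7%, and the quartiles of all libraries overlap.

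The members with the most counts were those of Myh9 (a non-muscle myosin heavy chain; mean count 3697, share 9.29%), Tubb5 (a beta tubulin; 3075.9, 43.6%), Msn (moesin, which links actin to the membrane; 2792.4, 38.5%), Cbx5 (a heterochromatin protein; 1849.7, 42.6%) and Thbs1 (thrombospondin, a matrix protein; 1831.5, 18.03%). The longest was the 122802 bp bin of D10Wsu102e, of which 1056 bp overlap exon bins of Aldh1l2 on the other strand. The 3 highest shares were those of Gm26642, Gm26759 and Snx22, at 99.9% to 100%, and each of these bins overlaps a gene on the other strand (Rnpep, Irf2bp2 and Ppib). The lowest shares were those of Hnrnpu (2.32%), Gdi2 (2.57%) and Qk (3.10%). At the count limit, Prkd3 (50.1) and Pola1 (50.1) lay just inside and Snrpb2 (49.9) and Mcph1 (49.9) just outside. At the length limit, Clstn1 (1000 bp) and Mboat1 (1002 bp) lay inside and Zwint (999 bp) and Ngrn (997 bp) outside.

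In METTL3 KO, 33 members took a larger part of their gene's counts than in WT and 3 took a smaller part. The genes of the 33 included Hnrnpd, which binds AU-rich elements, Tomm20, a receptor of mitochondrial protein import, Vgll3, a cofactor of TEAD transcription factors, and both Cpsf6 and Nudt21, subunits of a cleavage factor that binds UGUA near polyadenylation sites. The changes of the 36 ranged from 0.41 to 2.47 on the log2 scale in size. The quantity is the log2 change of the ratio of the bin's counts to the counts of the rest of the gene. It was tested with edgeR's quasi-likelihood test in 92563 bins, with Benjamini-Hochberg adjustment over all of them and a threshold of 0.05. Of these bins 112 passed (0.121%), 95 of them upward (0.103%). Of the 1813 members 1786 were tested, and 36 passed (2.02%).

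A higher rate of calls was not particular to ends of genes. Of 1801 tested bins of at least 1000 bp and 50 counts that lie inside genes, 31 passed (27 upward, 4 downward; 1.72%), and of 2714 other tested terminal bins 18 passed (0.663%). The difference between these rates and that of the members was not tested. Within the members, 27 of 940 extending bins passed (26 upward) against 9 of 846 set-apart bins (7 upward). The median change was 0.07 over the members and −0.01 over all bins tested, and 60.5% of the members and 48.3% of all bins lay above 0. A shift of about the same size was seen between the 2 RBM45 KO clones (0.08), which share a genotype. The share of counts in introns was 38.7% in METTL3 KO and 36.9% in WT, and its part in the shift was not tested.

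**Figure D2:**
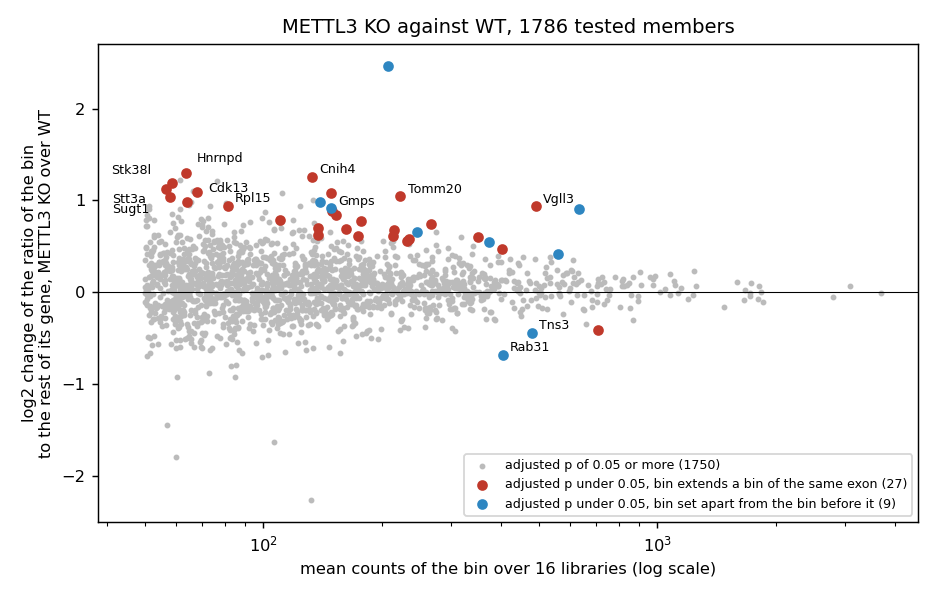
Log2 change of the terminal bin's counts relative to the rest of the gene, METTL3 KO against WT, on the vertical axis against the member's mean count on a log axis, for the 1786 members tested; coloured points are the 36 with an adjusted p under 0.05, split by whether the bin extends another. The called points lie mostly above 0, with 33 above and 3 below.

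Cnih4, a cornichon protein that helps cargo leave the endoplasmic reticulum, had the most stable change. Its member is the last 2613 bp of exon 4 (chr1:181166382-181168994, plus strand) and has no stop codon in it. It held 17.4% and 15.4% of the gene's counts in WT, 31.3% and 32.3% in METTL3 KO, and 13.3% to 20.8% (median 17.1%) in the 12 libraries of the other lines. Both METTL3 KO libraries were above all the others, and the ratio rose by 1.26 on the log2 scale (SE 0.143, edgeR adjusted p = 4.80e-08). The bin itself went from 21.5 to 39.4 CPM while the rest of the gene went from 108.9 to 84.4 CPM (mean of 2 libraries each).

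Tomm20 and Vgll3 showed the same order. The Tomm20 member (chr8:126930667-126934985, minus strand, 4319 bp) held 21.9% and 24.9% in WT, 37.3% and 39.8% in METTL3 KO and 20.1% to 27.4% elsewhere, a log2 change of 1.04 (SE 0.125, edgeR adjusted p = 1.73e-07). Its bin went from 38.9 to 61.1 CPM and the rest of the gene from 128.5 to 97.6 CPM. The Vgll3 member (chr16:65861896-65866368, plus strand, 4473 bp) held 24.9% and 27.8% in WT, 39.4% and 42.5% in METTL3 KO and 25.7% to 34.5% elsewhere, a log2 change of 0.94 (SE 0.112, edgeR adjusted p = 1.73e-07). Both libraries of METTL3 KO were again above the other 14. In Vgll3 the whole gene was more abundant in METTL3 KO, with the bin at 49.4 and 145.2 CPM and the rest at 135.6 and 209.8 CPM in WT and METTL3 KO. Set against the bin it extends, the counts per base of the Vgll3 member were 29.8% of that bin's in WT, 53.7% in METTL3 KO and 36.1% to 40.5% in the other groups.

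The largest rise outside members with a gene on the other strand was that of Hnrnpd. Its member (chr5:99955935-99960597, minus strand, 4663 bp) held 3.34% and 3.50% in WT, 8.02% and 8.14% in METTL3 KO and 2.26% to 5.51% elsewhere. The log2 change was 1.301 (SE 0.237, edgeR adjusted p = 0.00260), from 8.04 to 16.9 CPM in the bin and from 225.7 to 192.5 CPM in the rest. The bin it extends had a mean of 10.7 counts, too few for the member to be set against it.

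Stk38l (a kinase of the NDR family) held 16.7% and 17.8% in WT, 37.7% and 28.2% in METTL3 KO and 19.2% to 27.1% elsewhere (log2 change 1.19, SE 0.259, edgeR adjusted p = 0.0281). Stt3a (a catalytic subunit of oligosaccharyltransferase) held 2.46% and 2.24% in WT, 4.82% and 5.06% in METTL3 KO and 2.24% to 4.57% elsewhere (log2 change 1.13, SE 0.218, edgeR adjusted p = 0.00585). Cdk13 (a kinase that acts on RNA polymerase II) held 6.41% and 4.73% in WT, 10.9% and 10.6% in METTL3 KO and 5.08% to 9.19% elsewhere (log2 change 1.09, SE 0.229, edgeR adjusted p = 0.0207). In all 3 the 12 libraries of the other lines stayed below METTL3 KO, and their medians of 22.3%, 3.64% and 6.93% lay above the WT means.

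Sugt1 (a co-chaperone) rose by 1.04 (6.23% and 11.6% in WT, 16.6% and 17.2% in METTL3 KO, edgeR adjusted p = 0.0337), with the WT libraries far apart. Without WT replicate 1 the Sugt1 change was 0.64 and did not pass, and without WT replicate 2 it was 1.62. Gmps (GMP synthase) rose by 0.91 in a bin that is a whole exon with the stop codon (10.7% and 15.5% in WT, 20.97% and 23.9% in METTL3 KO, edgeR adjusted p = 0.00880), and the other lines reached 20.3%. Rpl15 (a protein of the large ribosomal subunit) rose by 0.94 (6.84% and 6.39% in WT, 11.99% and 11.9% in METTL3 KO, edgeR adjusted p = 0.00582). Ribosomal protein genes have near-identical copies, so the Rpl15 value is uncertain.

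Both named falls were in set-apart bins that hold the stop codon. The Rab31 member (a small GTPase of vesicle traffic; chr17:65651729-65654503) held 70.1% and 72.9% in WT, 63.2% and 58.9% in METTL3 KO and 58.9% to 69.9% elsewhere (log2 change −0.68, SE 0.148, edgeR adjusted p = 0.0281). Both WT libraries lay above the other 12, and METTL3 KO lay within their range in 1 library and just under it in the other. The Tns3 member (tensin 3, of focal adhesions; chr11:8431652-8434638) held 31.3% and 32.2% in WT, 23.4% and 27.2% in METTL3 KO and 27.6% to 35.7% elsewhere (log2 change −0.44, SE 0.0983, edgeR adjusted p = 0.0353). The third member that fell, Map3k12, overlaps other genes on the opposite strand.

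**Figure D3:**
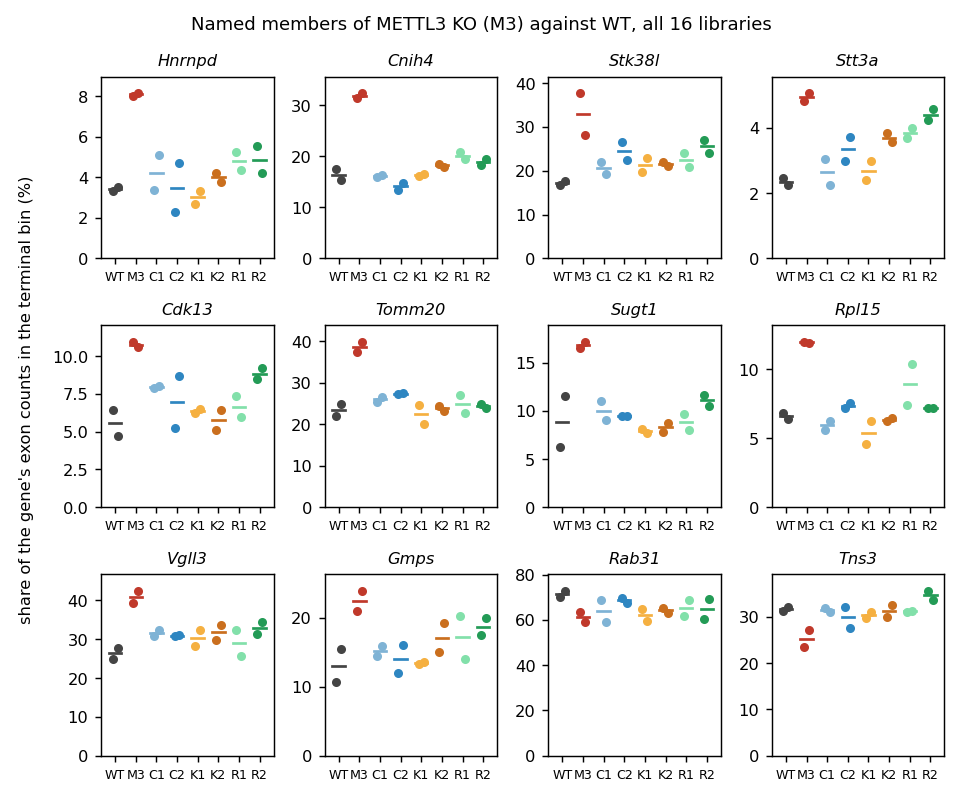
Share of the gene's exon counts in the terminal bin, in percent, in each library for the members named in the METTL3 comparison; points are single libraries and bars the mean of 2, with M3 for METTL3 KO, C for control, K for RBM45 KO and R for KO rescue clones. The METTL3 KO points of Cnih4, Tomm20, Vgll3 and Hnrnpd lie above every other point, while in Rab31 the WT points lie above the others.

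Over the 33 members that rose, both METTL3 KO libraries lay above all 12 libraries of the other lines in 24, and the median of those 12 was nearer to WT than to METTL3 KO in 29. The bin's CPM was higher in both METTL3 KO libraries than in both WT libraries in 30 of the 33 and lower in 0, with a median log2 change of 0.65. The rest of the gene was higher in 1 and lower in 17, with a median of −0.23. Over all tested members these medians were 0.10 and 0.02. These values come from the contrast that called the 33 and describe them only. The counts against the 12 libraries were not made over all tested members, so the 24 and the 29 have no background.

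The 33 were mostly distal stretches without the stop codon. The bin extended another in 26 of 33 and held a stop codon in 7, against 949 and 1001 of the 1813 members. Their median length was 3779 bp, their median GC content 41.1% (members 43.9%), and 31 of 33 had AATAAA or ATTAAA in the last 50 bases. GGACT, the core of the m6A consensus, was searched on the transcript strand and was present in 29 of the 33 (87.9%), in 1565 of 1808 members (86.6%) and in 4515 of 5771 other long terminal bins (78.2%). Its median density was 0.671 per kb in the 33 and 0.834 per kb in the members. TGTA, the DNA form of the cleavage-factor motif UGUA, was present in all 33, in 1802 of the 1808 members and in 5741 of the 5771 other bins, at a median of 6.23 per kb in the 33 and 5.36 per kb in the members. Across 1781 members the METTL3 change had a Spearman rho of −0.08 with GGACT density, 0.14 with TGTA density, −0.19 with GC content and 0.15 with length. These share base composition and libraries, are given as descriptions, and are weak.

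An exon bin of another gene lay opposite 7 of the 36 that passed. The largest change of any member was of this kind: Daglb (a diacylglycerol lipase), chosen for naming after its values were seen, held 63.1% and 71.5% in WT and 90.5% and 93.5% in METTL3 KO (log2 change 2.47, SE 0.243, edgeR adjusted p = 3.72e-10). Its bin lies over Rac1, whose gene-level value was 111.2 CPM in WT and 89.6 CPM in METTL3 KO. Reads of the pair cannot be told apart.

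How many members passed depended on the tool and on single libraries. DESeq2 called 8 of the 36 and no other member (21 of 26163 bins with an adjusted p, 0.0803%): Cnih4, Daglb, Fam57a, Hnrnpu, Pdcd6ip, Sc5d, Tomm20 and Vgll3. The diffSpliceDGE function of edgeR, which compares a bin with its whole gene, called 2 (12 of 91501 bins, 0.0131%), Cnih4 and Hnrnpd. Without METTL3 KO replicate 1, METTL3 KO replicate 2, WT replicate 1 or WT replicate 2, the count was 16, 12, 13 and 27, and 4 members passed in all of these: Cnih4, Daglb, Tomm20 and Vgll3.

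Of 7 gene lists, 2 had members that passed in METTL3 KO, namely SR proteins and hnRNPs, and cleavage and polyadenylation factors. The lists and members were chosen with results of these data known, so the counts are descriptions. Of 9 tested members of SR proteins and hnRNPs (from 43 genes), 3 rose and 0 fell, with a median change of 0.56 and 7 above 0. Srsf6, an SR splicing protein, held 13.9% and 15.1% in WT and 21.7% and 20.1% in METTL3 KO (log2 change 0.62, edgeR adjusted p = 0.0228). Hnrnpd was given above, and the third, Hnrnpu (log2 change 1.08, edgeR adjusted p = 7.97e-05), lies opposite Cox20 and also fell between the control clones. Hnrnpdl, a relative of Hnrnpd, had a change of 0.67 that did not pass (edgeR adjusted p = 0.220). By DESeq2 and by diffSpliceDGE 1 of the 9 passed each.

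Of 5 tested members of cleavage and polyadenylation factors (from 23 genes), 2 rose, and all 5 lay above 0 with a median of 0.28. Cpsf6 held 15.3% and 19.4% in WT and 29.1% and 25.2% in METTL3 KO (log2 change 0.78, edgeR adjusted p = 0.00951). Nudt21 held 17.8% and 17.6% in WT and 24.3% and 29.0% in METTL3 KO (log2 change 0.78, edgeR adjusted p = 0.0352). DESeq2 and diffSpliceDGE called 0 of the 5. At an unadjusted p under 0.05 edgeR's quasi-likelihood test had 2 of these 5.

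In 5 other lists edgeR called 0 tested members in METTL3 KO. At an unadjusted p under 0.05 it had 1 of 3 members of m6A writers, erasers and readers, 1 of 13 of genes known for alternative 3′ ends, 2 of 10 of early-response and short-lived transcripts, 1 of 5 of the microRNA pathway and 3 of 15 of neuronal cytoskeleton, axon and synapse genes. DESeq2 and diffSpliceDGE also called 0 in each. Among them were Mettl16, another m6A methyltransferase (log2 change 0.54), Fto and Alkbh5, both m6A demethylases (−0.29 and 0.03), Cand1 (0.48), Mcl1 (0.36), Cnot6 (0.31) and Nrp2 (−0.29), none of which passed.

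**Figure D4:**
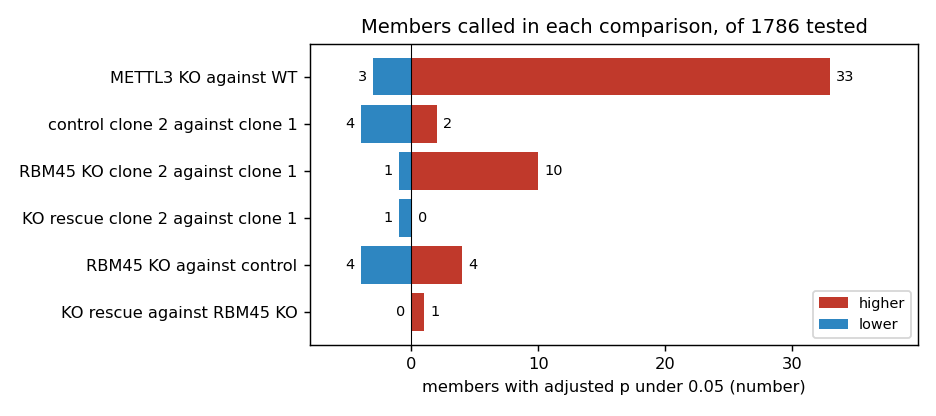
Number of members that passed at an adjusted p of 0.05 in each comparison, higher and lower. METTL3 KO against WT had 36, RBM45 KO clone 2 against clone 1 had 11, RBM45 KO against control had 8, the control clones had 6, and KO rescue against RBM45 KO and the rescue clones had 1 each.

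Between RBM45 KO and control, 8 members passed, and only in 3 of them did the 2 sides not overlap: Ide and Tor1aip2 fell and Zfp84 rose. The 2 libraries of each clone were added, so that 2 clones were compared with 2 in a fit over 6 clones, and edgeR called 80 of 92563 bins (0.0864%) and 4 members upward and 4 downward. In KO rescue against RBM45 KO, 65 bins (0.0702%) and 1 member, Ide, passed, upward. Both comparisons use the RBM45 KO libraries, so a shift in these moves both in opposite directions. When each KO clone was set against each control clone, 3 bins passed the same way in all 4 pairs (0.00324%), and when each rescue clone was set against each KO clone 2 did (0.00216%). Ide was the only member in either. Without KO clone 1 the KO-against-control count was 21, without KO clone 2 it was 1, and without control clone 1 or 2 it was 7 or 3. The rescue count was 16 without KO clone 2 and 1 or 2 without KO clone 1 or either rescue clone.

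Ide encodes insulin-degrading enzyme, a protease of insulin and amyloid peptides. Its member is the last 1687 bp (chr19:37268743-37270429, minus strand) and extends another bin. It held 12.3%, 12.04%, 12.7% and 13.01% in the 4 control libraries, 3.25%, 6.74%, 4.46% and 4.37% in RBM45 KO, and 12.1%, 10.9%, 12.03% and 10.7% in KO rescue. WT was at 11.96% and 17.6%. All 4 KO libraries lay below the other 12. The ratio changed by −1.47 from control to KO (SE 0.159, edgeR adjusted p = 5.54e-08) and by 1.34 from KO to rescue (SE 0.167, edgeR adjusted p = 4.69e-06). The rest of the gene also differed, at 177.0 CPM in control, 68.1 in KO and 123.7 in rescue (means of 4 libraries), and the bin was at 25.3, 3.47 and 16 CPM. Relative to the bin it extends, the member's counts per base were 67.8% and 74.4% in the control clones, 76.6% and 77.4% in the KO clones and 68.4% and 65.5% in the rescue clones. That bin had a mean of only 33.1 counts over the 16 libraries. Ide passed in both comparisons whichever clone was left out, and by diffSpliceDGE it did not pass (adjusted p = 0.478 for KO against control).

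Tor1aip2 encodes a membrane protein of the endoplasmic reticulum that binds torsins, and its member (chr1:156064843-156068861, plus strand) was lower in KO and in rescue. It held 30.6%, 29.1%, 23.7% and 27.1% in control, 21.1%, 22.8%, 17.8% and 19.7% in KO and 19.4%, 20.4%, 18.7% and 17.4% in rescue. The change from control to KO was −0.59 (SE 0.0944, edgeR adjusted p = 4.88e-04), and that from KO to rescue was −0.14 (edgeR adjusted p = 0.942). Against control clones 1 and 2 the change was −0.59 and −0.28 in KO clone 1 and −0.88 and −0.57 in KO clone 2. The −0.28 did not pass (edgeR adjusted p = 0.861), and control clone 2 differed from clone 1 by −0.31. Leaving out 1 clone in turn gave −0.42 to −0.75. By DESeq2 (adjusted p = 0.545) and by diffSpliceDGE the change from control to KO did not pass. The control and KO libraries did not overlap, and rescue lay at the level of KO. The same member rose in METTL3 KO, from 27.9% and 25.6% to 35.8% and 34.9% (log2 change 0.58, edgeR adjusted p = 0.00951). Relative to the bin it extends, the member's counts per base were lower in METTL3 KO (31.3%) than in WT (50.8%). They were 56.2% and 41.8% in the control clones, 55.8% and 39.1% in the KO clones and 38.8% and 45.6% in the rescue clones. That bin had a mean of only 18.8 counts over the 16 libraries.

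Zfp84, a zinc finger gene, has most of its counts in its last exon (chr7:29776132-29779821, plus strand). The member held 76.8%, 77.2%, 82.2% and 74.3% in control, 89.1%, 87.5%, 83.7% and 95.9% in KO and 87.3%, 72.5%, 77.3% and 77.3% in rescue. The ratio rose by 1.26 in KO (SE 0.249, edgeR adjusted p = 0.0123) and changed by −1.11 in rescue (edgeR adjusted p = 0.0523). The rest of the gene was at 3.25 CPM in control and 1.76 CPM in KO, so few counts carry this ratio. In Hmgn1 (a nucleosome-binding protein; log2 change 0.44) and Ctif (1.10) the sides overlapped, and Ap3m1, D10Wsu102e and E530011L22Rik lie opposite other genes. Of members that did not pass in rescue, Ctif had a change of 1.00 (edgeR adjusted p = 0.0592), Arfgef2 of 0.55 (0.0751) and Aagab of 0.61 (0.126).

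**Figure D5:**
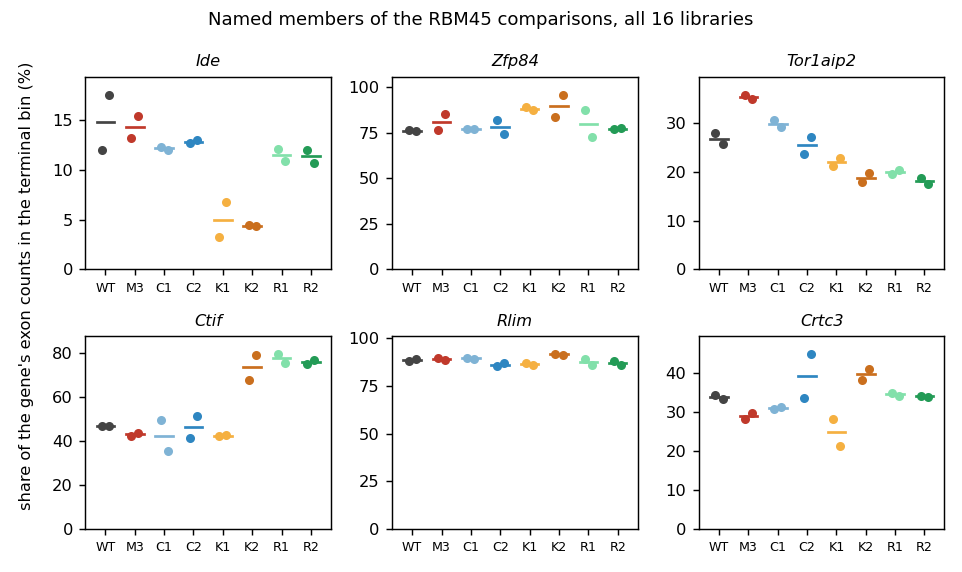
Share of the gene's exon counts in the terminal bin, in percent, in each library for members named in the RBM45 comparisons, by clone (letters as C for control, K for RBM45 KO, R for KO rescue); bars are the mean of 2 libraries. For Ide the 4 RBM45 KO libraries lie between 3.25% and 6.74%, below all others; for Ctif RBM45 KO clone 2 and the rescue clones lie above RBM45 KO clone 1.

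Clones of 1 genotype differed as well. Between the control clones 33 bins (0.0357%) and 6 members passed, 2 upward and 4 downward in clone 2, among them Gxylt2 (a xylosyltransferase; −0.61), Helz (an RNA helicase; −0.94) and Uhrf1bp1l (0.87). Between the RBM45 KO clones 45 bins (0.0486%) and 11 members passed, 10 upward and 1 downward. With the ratio centred in each library on the members' median the split was 6 upward and 2 downward. Of the 11, 7 lie opposite an exon of another gene. Between the KO rescue clones 5 bins (0.0054%) and 1 member, Eml5, passed. In the fit over 16 libraries, the members at an unadjusted p under 0.05 were 344 in METTL3 KO (19.3% of those tested, against 6.35% of all bins). Between the control, KO and rescue clones they were 194 (10.9%, against 4.96%), 281 (15.7%, against 5.79%) and 182 (10.2%, against 4.53%). In the fit over 6 clones they were 177 in RBM45 KO against control (9.91%, against 5.59%) and 203 in rescue against KO (11.4%, against 5.64%). Members had to reach a mean of 50 counts and tested bins one of 10, so these shares are not matched for counts.

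The largest change between the KO clones without an overlapping gene was in Ctif, a factor for translation of cap-binding-complex-bound mRNA. Its last exon held 46.7% and 47.0% in WT, 42.5% and 43.8% in METTL3 KO, and 49.5%, 35.3%, 41.3% and 51.4% in the control clones. It held 42.4% and 42.7% in KO clone 1, 68.0% and 79.4% in KO clone 2, and 75% to 79.7% in the 4 rescue libraries. KO clone 2 and the rescue clones stood together, above all others. The ratio differed by 1.99 between the KO clones (SE 0.215, edgeR adjusted p = 1.34e-08). The bin was at 21.7 CPM in clone 1 and 37.3 in clone 2, and the rest of the gene at 29.4 and 13.5 CPM. In Rlim, a ubiquitin ligase, the member held 87.3% and 86.3% in clone 1 and 91.8% and 91.4% in clone 2 (log2 change 0.73, edgeR adjusted p = 5.06e-05). In Crtc3, a CREB coactivator, it held 28.3% and 21.4% in clone 1 and 38.4% and 41.1% in clone 2 (log2 change 1.01, edgeR adjusted p = 0.0321). The mesenchymal markers given above also differed between these clones, and their part in the changes was not tested.

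Across the 6 comparisons 56 of the 1813 members (3.09%) passed in at least 1, and 1786 of the 1813 had been tested. Over all 92563 bins the share was computed only for each comparison by itself, from 0.0054% to 0.121%. Tor1aip2 and D10Wsu102e passed in both METTL3 KO and RBM45 KO against control, Hnrnpu in METTL3 KO and between the control clones, and Ap3m1 and Ctif both in RBM45 KO against control and between the KO clones.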

How the data were processed

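Total RNA was sequenced in 16 libraries. Per the file headers the authors counted reads with featureCounts 1.6.3 (strand setting forward, overlapping features allowed, minimum overlap 0.1) on flattened Ensembl 98 exon bins, and the submitters' processing notes list HISAT2 2.1.0 and mm10; the deposited values are raw counts. The kit does not keep strand, per the labels. Columns of the control clones were matched by elimination, and clone numbers are names only. A bin was tested if its mean count and that of the rest of its gene both reached 10. The test was that of edgeR 4.0.16 (glmQLFit and glmQLFTest, R 4.3.3), with the log of the rest-of-gene count plus 0.5 as offset, the sampling variance of that count added to the trended dispersion, and Benjamini-Hochberg adjustment over 92563 bins. Library comparisons used all 16 libraries (8 residual degrees of freedom), genotype comparisons 6 clones (3 residual degrees). The quasi-likelihood test pools the spread over all bins tested, so a p-value does not rest on the member's own libraries or clones alone. Ctif passed in RBM45 KO against control (edgeR adjusted p = 0.0331) with its KO clones at 42.5% and 73.7%. CPM are counts scaled to library totals after TMM scaling (gene-table totals for whole genes, tested-bin totals for bins). DESeq2 1.42.0 and diffSpliceDGE were alternatives. Scripts were tested on simulated data. Sequences came from GENCODE 21. Named members were those with the largest changes past the threshold whose sides did not overlap and with no gene opposite, those with the smallest p, level extremes and the gene lists' smallest p. The members and lists were chosen with earlier results of these data known.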

Additional observations from a re-analysis of the deposited data

Results flagged for a closer look

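Of the 11 members called between the RBM45 KO clones, 7 lie opposite another gene, and the 3 named here have the largest rises among the other 4. In these 3 the change from control to RBM45 KO differed between the 2 RBM45 KO clones by a test of the difference itself, edgeR's quasi-likelihood test of clone 2 against clone 1. The difference in the log2 ratio of the bin to the rest of the gene was 1.99 in Ctif, 1.01 in Crtc3 and 0.73 in Rlim, each higher in both libraries of clone 2. What separates the clones was not tested.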

How the results depend on the processing

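Alternatives were computed for the log2 changes of 22 named results. Of their 197 values 0 reversed, 116 stayed on their side of the threshold and 81 no longer passed. Within these 22, Cnih4 in METTL3 KO was the only one to pass under every alternative. Outside them, Ddx39 between the RBM45 KO clones passed in each of the other fits run and with each library left out. In the order METTL3 KO, control clones, RBM45 KO clones, rescue clones, RBM45 KO against control and rescue against KO, the 36, 6, 11, 1, 8 and 1 members called became 8, 0, 4, 0, 3 and 3 by DESeq2 and 2, 0, 1, 0, 0 and 0 by diffSpliceDGE. At an unadjusted p under 0.05 DESeq2 had 194, 89, 113, 55, 53 and 56 and diffSpliceDGE 68, 17, 17, 4, 1 and 2. Testing every bin with at least 1 count gave 12 in the control clones, 17 in the KO clones, 3 in the rescue clones, 16 and 9. Centring the ratio in each library on the members' median gave 22 in METTL3 KO (21 of the 36), 0 in the rescue clones and 3 in rescue against KO. Members with at least 100 counts gave 3, 7 and 0 in the control, KO and rescue clones. Members without a gene on the other strand gave 3, 4 and 0 in these and 5 in RBM45 KO against control. Members of at least 2000 bp gave 0 in rescue against KO, and 0 in each count over 4 clone pairs, since Ide is shorter. DESeq2 and diffSpliceDGE also gave 0 in each count over 4 pairs, where the main value was 1. Leaving out 1 library or clone gave 12 to 27, 1 to 3, 5 to 8, 0 to 2, 1 to 21 and 1 to 16, and 0 to 1 in both counts over pairs; a lone sample was then assumed to vary like the other groups.

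With the replicate number as a block the counts were 36, 6, 11, 1, 9 and 5, and 1 in each count over pairs. The labels do not say that the numbers pair libraries, and over 28 pairs the correlation of same-numbered libraries ranged from −0.109 to 0.0706, with 0 over 0.1. The median share per library ran from 32.4% to 34.7%, and from 35.6% to 38.02% when bins under 10 counts were left out of the gene's total. Apart from these counts, why a call was lost was not tested. Depth limits ratios with few counts in the rest of the gene, as in Zfp84 (1.76 CPM in RBM45 KO).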

Other observations

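In RBM45 KO clone 2 against clone 1 the largest change of any member was the fall of Ddx39 by 1.99 on the log2 scale (edgeR adjusted p = 1.27e-10), chosen for naming after its values were seen. The genes joined on its other strand were at 49.97 CPM in clone 1 and 11.1 CPM in clone 2, and at 8.45 and 5.21 CPM in the rescue clones. In Eml5, which rose by 1.12 between the KO clones and fell by 1.06 between the rescue clones, the opposite gene Zc3h14 was at 50.6 and 58.2 CPM in the KO clones. Vcl, opposite Ap3m1, was at 423.3 and 510.9 CPM. Whether reads of the opposite genes moved these shares was not tested.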
